A study of Mus musculus with 12 samples.

Results

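The 44 genes described here encode the proteins of the sarcomere and of the Z-disc. They are the actins, nebulin and the pointed-end proteins of the thin filament (7 genes), the troponins and tropomyosins (10), the light chains and binding proteins of the thick filament (8), titin with the M-band (5), and the Z-disc with its signalling partners (14). They were matched by symbol from the 48795 genes in the deposited tables, not picked by a rule on the measured values. Earlier results of these data were known when they were chosen. All 44 symbols matched an identifier, all 44 had a count in every library, and all 44 were among the 14838 genes that passed the filter on low counts. RNA was measured in C2C12 cells, a mouse myoblast line that fuses into contractile myotubes in low serum, after 5 days of differentiation. The tag for the cell type in the records reads myoblasts, whereas the culture described is of myotubes, and 1 cell line was used throughout. Vehicle myotubes received 0.02% DMSO for 24 h, and gRc myotubes received 10 µM ginsenoside Rc (gRc, a glycosylated saponin of ginseng) for 24 h. H2O2 myotubes received vehicle for 18 h and then 0.25 mM hydrogen peroxide for 6 h. The gRc+H2O2 myotubes received 10 µM gRc for 18 h and then 0.25 mM H2O2 for 6 h, although a tag of those samples gives 24 h of gRc before the peroxide. Each group had 3 libraries, and nothing in the records says that they came from separate cultures, so the p-values speak for the variation from library to library, part of which may be technical.

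Myotubes shorten when myosin of the thick filament pulls on actin of the thin filament, under the control of calcium binding to troponin and the shift of tropomyosin that follows. Z-discs anchor the thin filaments and the ends of titin, the M-band ties the thick filaments together, and titin spans between them as a spring. Several Z-disc and titin-bound proteins also move to the nucleus or change in amount when muscle is stretched or injured, which is why the lattice is also regarded as a sensor of strain.

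Library totals ran from 19274762 to 31409066 expected counts. The 44 genes took 3.90% to 5.69% of them, with group means of 4.67% ± 0.549 in vehicle, 4.92% ± 0.885 in gRc, 4.52% ± 0.286 in H2O2 and 4.18% ± 0.468 in gRc+H2O2 (SD, n = 3). Vehicle 1, vehicle 3 and gRc 3 stood apart. On the first principal component of all genes (43.1% of the variance) they lay at -68.6, 82.3 and 84.2, and the other 9 libraries lay between -44.9 and 22.8. The gap in log2 level between GC-poor and GC-rich genes was -0.793 in vehicle 1 and between -0.202 and 0.394 in the others. Markers of differentiated myotubes (12 of 12 tested) summed to 9035 to 14754 CPM (counts scaled to a common library size by TMM factors) over the libraries, and 0 of 12 passed the test in H2O2 against vehicle (median log2 fold change -0.39). Markers of undifferentiated myoblasts (11 of 11 tested) summed to 508.5 to 874 CPM in vehicle and 395.1 to 561.3 in H2O2, and 5 of the 11 fell. Markers of cycling cells (8 of 8 tested) summed to 267.1 to 340 CPM in vehicle and 208.5 to 228.3 in H2O2, and 2 of the 8 fell. Over all genes 7.84% fell in H2O2 against vehicle. Markers of fibroblast-like cells (7 of 8 tested, 0 of them past the threshold) summed to 35450 CPM in vehicle 1 and to 4900 to 13872 in the other 11 libraries. Markers of adipocytes (5 listed, none tested for low counts) stayed under 0.621 CPM in sum, and those of cardiac muscle (3 of 6 tested) between 14.3 and 33.1 with Myl7 at 0 in every library. None of these markers is among the 44. The part of these differences in the results that follow was not tested. In RNA from a whole culture, fewer myotubes and less RNA per myotube cannot be told apart.

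On the TPM scale, the deposited values that divide by length and so allow genes to be compared, levels of the 44 genes differed by orders of magnitude. In vehicle the highest level was that of Mylpf, the regulatory light chain of fast myosin, at 9490 ± 3832 TPM (SD, n = 3). It was followed by Tnnc1, slow and cardiac troponin C, at 7923 ± 2641 and by Tnnt2, cardiac troponin T, at 6171 ± 3421, and these neighbours did not differ beyond their spread. Actc1, the cardiac actin that is also the early actin of developing muscle, had the tightest level relative to its mean, at 1251 ± 17.4 TPM. The structural giants ranked 26 (Neb, 217.5 ± 84.0 TPM) and 39 (Ttn, 33.9 ± 7.25) of the 44. Among genes over 1 TPM in vehicle they lay at percentiles 94.25 and 66.29. Lowest were Myoz1, a calcineurin-binding Z-disc protein of fast fibres, at 2.16 ± 1.11 TPM, Myl3, the slow and ventricular essential light chain, at 2.14 ± 1.3, and Tmod4, a pointed-end cap, at 1.25 ± 0.479. These last 3 genes overlapped each other in vehicle.

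**Figure D1:**
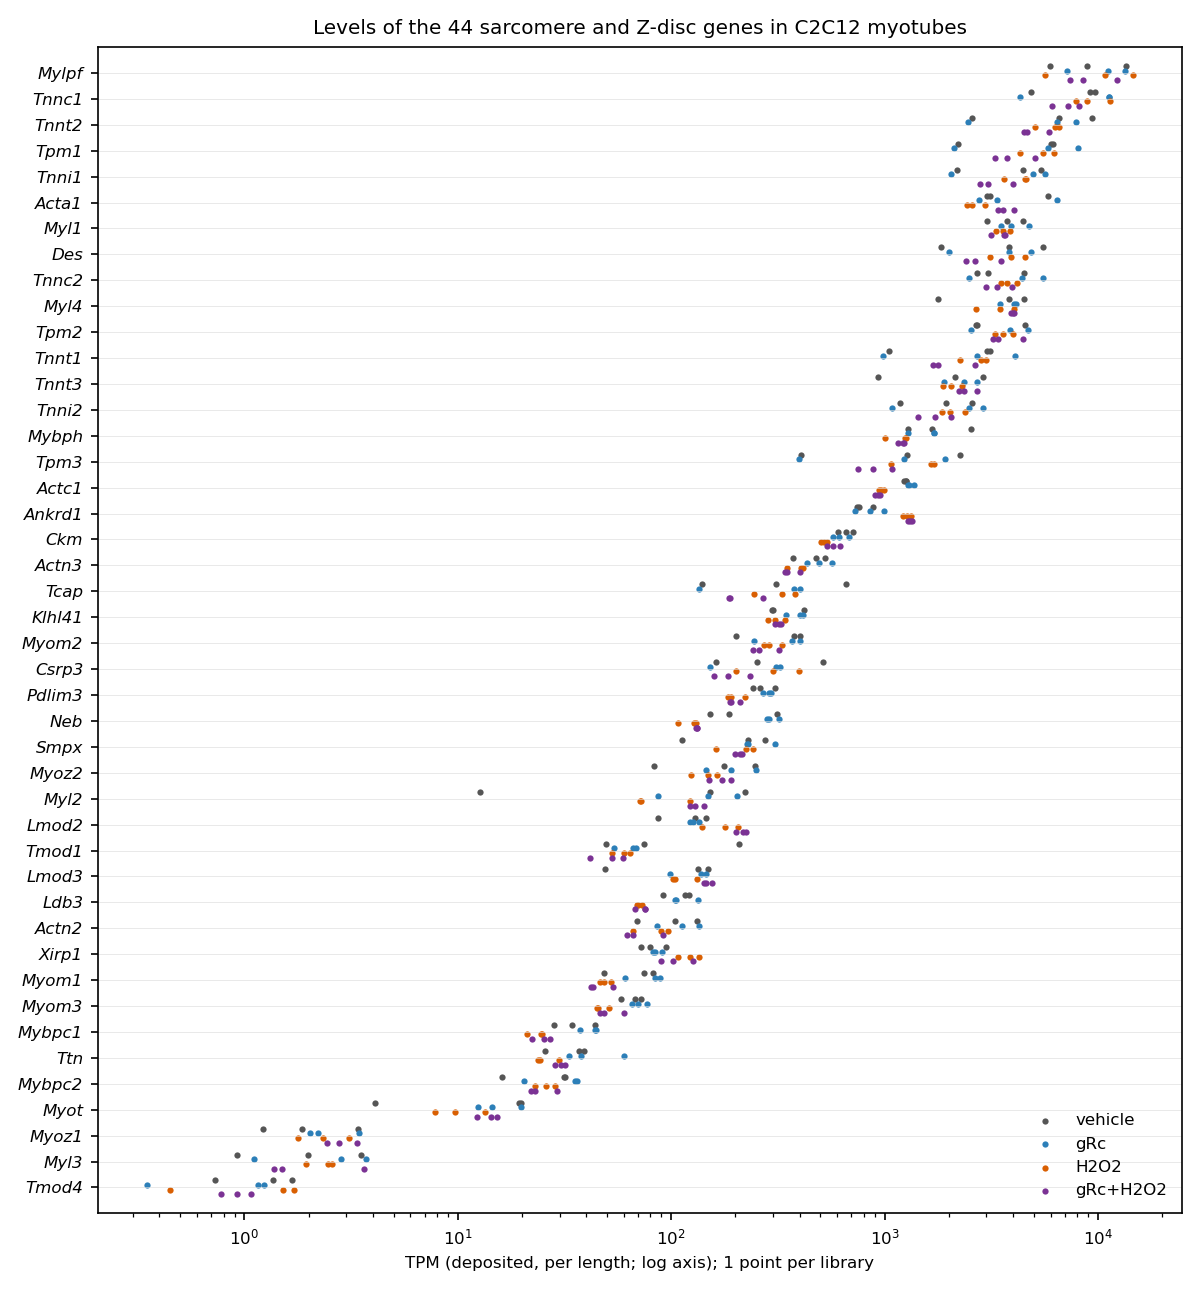
Level of each of the 44 genes on a log axis of TPM, with 1 point for each of the 12 libraries, coloured by group and ordered by the vehicle mean. Mylpf stands at the top with a vehicle mean of 9490 TPM and Tmod4 at the bottom with 1.25 TPM.

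The first comparison, H2O2 against vehicle, asked what 6 h of peroxide did to the transcripts of the contractile lattice. Ankrd1 and Lmod2 rose, Neb fell, and the other 41 genes did not pass the test (edgeR quasi-likelihood, Benjamini-Hochberg adjusted p under 0.05 over 14838 genes). Of all genes tested, 7.81% rose and 7.84% fell, so 2 of 44 (4.55%) and 1 of 44 (2.27%) were no more than the background. The median log2 fold change of the 44 was -0.02, against -0.06 over all genes, with 21 genes above 0 and 23 below. At an unadjusted p under 0.05, 11 of the 44 passed, against 4422 of the 14838 genes tested. Libraries of the H2O2 and vehicle groups did not overlap for 10 of the 44 (22.7%), against 31.1% of all genes. Higher without overlap were Ankrd1, Lmod2 and Xirp1, and lower without overlap were Actc1, Neb, Ttn, Mybpc1, Tmod1, Ldb3 and Pdlim3. The closest genes outside the threshold were Ldb3 (adjusted p = 0.0501), Xirp1 (0.0521), Mybpc1 (0.0551), Tmod1 (0.0700) and Ttn (0.0803).

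The second comparison, gRc+H2O2 against gRc, asked the same question in cells that had received gRc, and its 2 groups share no library with those of the first. Both were taken from the same fit of all 12 libraries with a shared estimate of the spread, so their tests are not independent. By the protocol gRc lasted 24 h in the gRc group and 18 h before the peroxide in gRc+H2O2. Whether it stayed on during the peroxide is not given in the sample labels, so exposure to gRc may also differ. Here 2 of the 44 rose, again Ankrd1 and Lmod2, and 5 fell, namely Mybpc1, Neb, Ttn, Actc1 and Myom1. Over all genes 7.57% rose and 8.15% fell, against 4.55% and 11.4% of the 44. The median of the 44 was -0.24, against -0.04 for all genes, and 34 of the 44 lay below 0. Of the 12 myotube markers 2 fell there, with a median of -0.32, and their part in this shift was not tested. Groups did not overlap for 13 of the 44 (29.5%), against 38.7% of all genes. Ankrd1, Lmod2 and Neb passed in both comparisons, 7 genes passed in at least 1 of them, and 29 of the 44 had the same sign in both, 21 of them below 0 and 8 above. The matching figures over all genes are not given here, so this agreement is not set against a background.

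**Figure D2:**
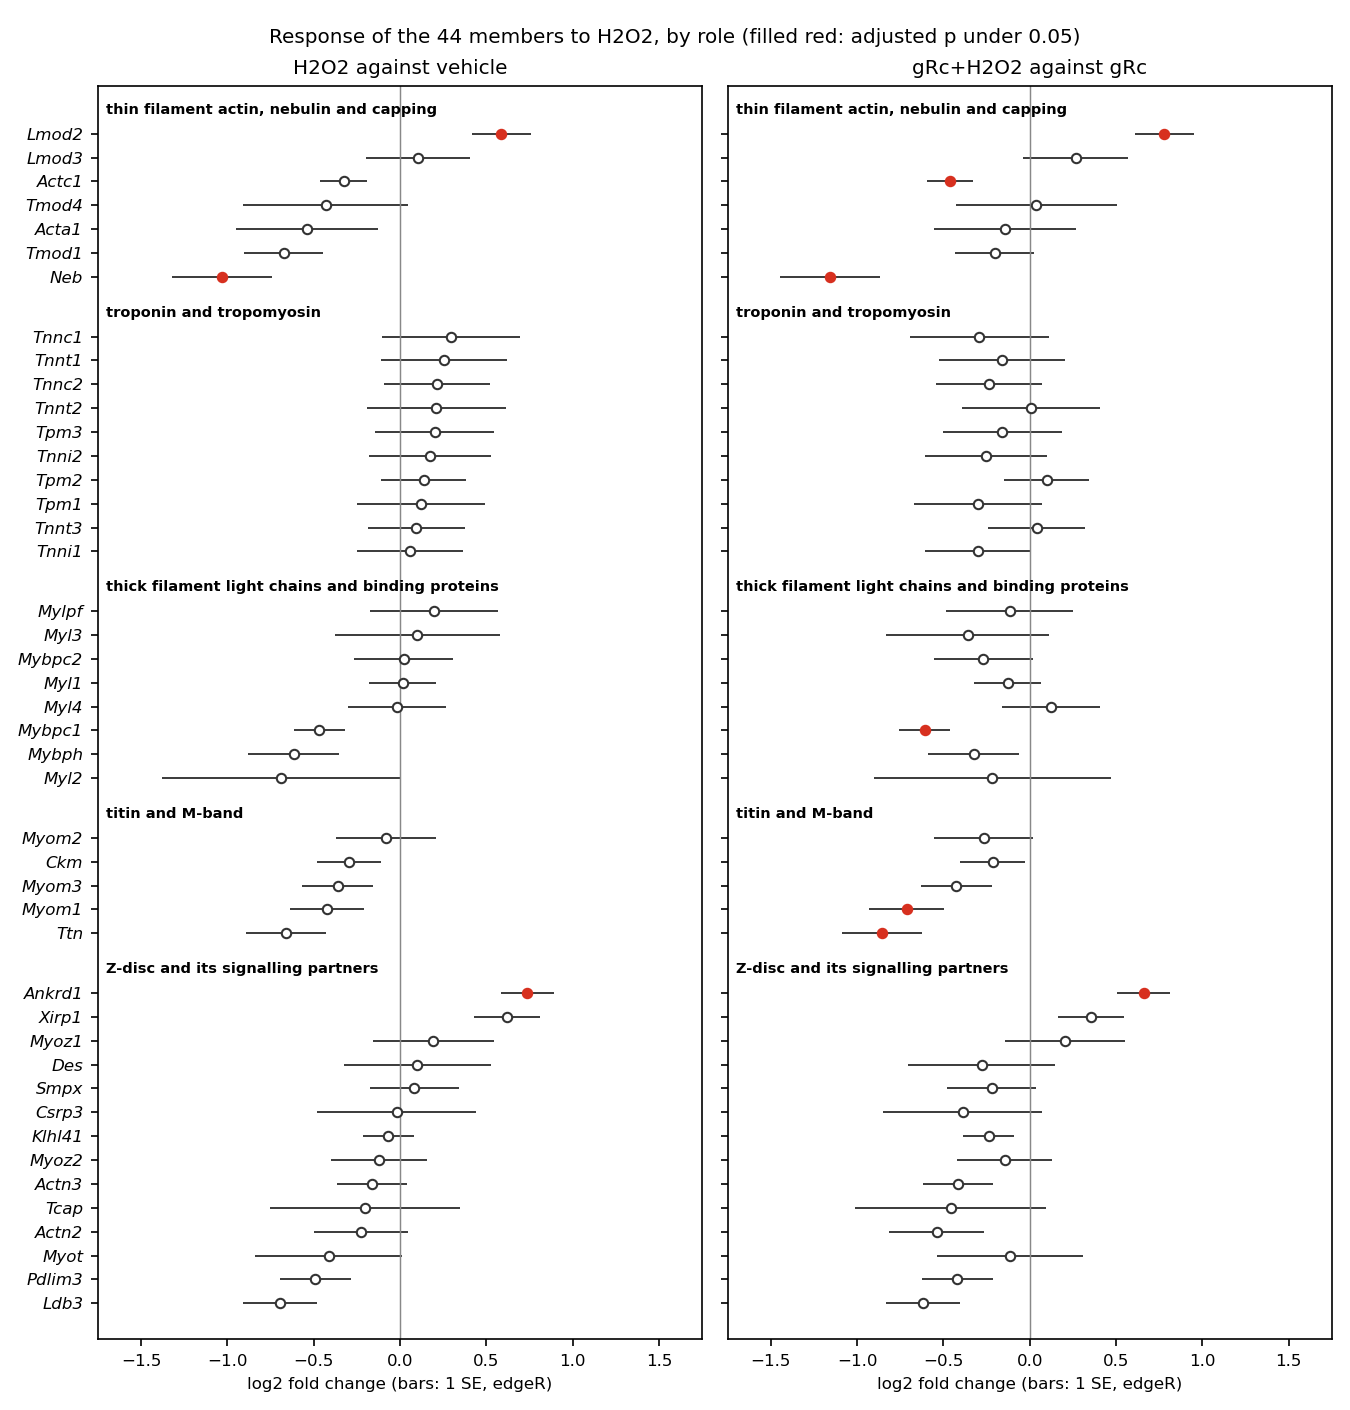
Log2 fold change with its SE for each of the 44 genes, grouped by role, in H2O2 against vehicle (left) and gRc+H2O2 against gRc (right), n = 3 libraries a group, with filled markers for genes past the threshold. All 5 genes of titin and the M-band lie below 0 in both panels, and Ankrd1 and Lmod2 lie above 0 in both.

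How far these counts depend on single libraries was checked by leaving out each of the 12 in turn. The matching counts over all genes are not given for the fits of this paragraph. The counts below are therefore not set against a background. In H2O2 against vehicle the number of the 44 past the threshold was 3 and became 7 without vehicle 1, 6 without gRc 3, and 1 without H2O2 2, H2O2 3 or gRc+H2O2 1. In gRc+H2O2 against gRc it was 7 and became 3 without gRc 1, 4 without gRc 2, 1 without gRc+H2O2 1 or 2, and 2 without gRc+H2O2 3. Leaving out the 3 libraries that stood apart leaves vehicle 2 as the only vehicle library and gRc 1 and 2, so the spread comes from the other groups and vehicle 2 is assumed to vary as they do. In that fit 6 genes passed in H2O2 against vehicle (Ankrd1 rose, and Ttn, Neb, Mybpc1, Myot and Ldb3 fell). In the same fit 18 passed in gRc+H2O2 against gRc, of which 2 rose and 16 fell.

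Among the thin filament genes, nebulin fell and leiomodin-2 rose. Neb (ENSMUSG00000026950, chr2:52136647-52378474, minus strand, GRCm38) encodes nebulin, a giant protein that runs along the thin filament and sets its length. Its level was 447, 845 and 872 CPM in vehicle, 801, 742 and 1373 in gRc, 322, 413 and 324 in H2O2, and 429, 467 and 410 in gRc+H2O2. Every peroxide library but gRc+H2O2 2 lay below the lowest library without peroxide, vehicle 1, and within each comparison the groups did not overlap. In H2O2 against vehicle its log2 fold change was -1.03 (SE 0.29, adjusted p = 0.0343), a level 2.05-fold lower, and in gRc+H2O2 against gRc it fell by 1.16 (SE 0.29, adjusted p = 0.0212). The first call was lost without vehicle 2, vehicle 3, any H2O2 library or gRc+H2O2 1, with adjusted p up to 0.112 and log2 fold changes of -1.28 to -0.89. It was also lost when only the groups compared were fitted and with limma on TPM. The second was lost without gRc 3 or any gRc+H2O2 library, with adjusted p up to 0.0757. Gm13522 and Gm22095 lie on the opposite strand of Neb and Gm13521 on the same strand, and whether counting used strand is not given. The same limit holds for Ttn, Actc1 and Myom1, which overlap Gm13938, A530058N18Rik and Myl12a on the opposite strand. Myom1 also overlaps Gm26561 on the same strand.

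Lmod2 (ENSMUSG00000029683, chr6:24597762-24605414, plus strand) encodes leiomodin-2, which lengthens actin filaments from their pointed ends. Its values were 114, 167 and 161 CPM in vehicle, 138, 157 and 157 in gRc, 183, 249 and 231 in H2O2, and 239, 265 and 272 in gRc+H2O2. All 6 peroxide libraries lay above all 6 others. It rose by 0.59 in H2O2 against vehicle (SE 0.17, adjusted p = 0.0419) and by 0.78 in gRc+H2O2 against gRc (SE 0.17, adjusted p = 0.0122). The first call held in 3 of the 12 fits with 1 library left out (0.44 to 0.70, adjusted p 0.0386 to 0.154) and was lost without vehicle 1 or 3, gRc 1 or 2, H2O2 2 or 3, or any gRc+H2O2 library. That call was also lost with no filter, with only the groups compared, with limma on TPM and with effective-length offsets. The second was lost without gRc 1 alone (adjusted p = 0.0537), and with limma on TPM.

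Actc1 (ENSMUSG00000068614, chr2:114047282-114053548, minus strand) fell in the comparison within gRc. It stood at 1191, 1035 and 1087 CPM in vehicle, 1046, 1207 and 1059 in gRc, 931, 839 and 873 in H2O2, and 763, 810 and 831 in gRc+H2O2. The 6 peroxide libraries again lay apart from the other 6, all of them lower. The log2 fold change was -0.33 in H2O2 against vehicle (SE 0.14, adjusted p = 0.134) and -0.46 in gRc+H2O2 against gRc (SE 0.14, adjusted p = 0.0410). The latter call held in 3 of the 12 fits with 1 library left out and was lost without vehicle 2, gRc 1 or 2, any H2O2 library or any gRc+H2O2 library (adjusted p up to 0.154). It was also lost with other size factors, no filter, only the groups compared, a replicate block, limma on TPM and effective-length offsets. Acta1, the adult skeletal actin, was at 1775, 2293 and 5013 CPM in vehicle and 2017, 2352 and 1884 in H2O2, with 2557, 1871 and 5071 in gRc and 2831, 3224 and 2554 in gRc+H2O2. Its spread in the groups without peroxide came from vehicle 3 and gRc 3, and its log2 fold change in H2O2 against vehicle was -0.54 (SE 0.41, adjusted p = 0.423). Reads shared between the near-identical actins were divided by RSEM's estimate, so the split between Acta1 and Actc1 is uncertain. Tmod1, a pointed-end cap, had 189, 99.1 and 101 CPM in vehicle and 81.1, 82.5 and 79.8 in H2O2, without overlap (log2 fold change -0.67, SE 0.23, adjusted p = 0.0700). The other thin filament genes, Lmod3 and Tmod4, had log2 fold changes of 0.10 and -0.43. Over the 7 genes the median was -0.43 in the first comparison, with 2 above 0, and -0.14 in the second, with 3 above 0.

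Promoter windows of 300 bases (250 before to 50 after the start annotated by RefSeq, GRCm38.p6) were read for the genes that changed, since the SRF-binding CArG box, the MEF2 site and the TEAD-binding MCAT motif (CATTCC) are the classic elements of sarcomeric promoters. Of the 44 genes, 34 matched the table, with 40 promoters. Searched on both strands, a CArG box was in 6 of these 40 (15%), against 1.63% of 32851 mouse promoters, a MEF2 site in 4 (10%, against 3.19%), MCAT in 12 (30%, against 14.7%), TATAAA in 6 (15%, against 13.6%) and the E-box CANNTG in 35 (87.5%, against 72.3%). Overlapping windows of Ldb3, which hold the same box, are counted separately among the 6 with a CArG box. The 3 genes past the threshold in any contrast below that held a CArG box were Actc1, Myom1 and Ldb3. The Actc1 window at chr2:114052826-114053125 (minus strand) is shown with its CArG box in capitals, 47 bases before the start. A match describes the letters of the window only.
Actc1: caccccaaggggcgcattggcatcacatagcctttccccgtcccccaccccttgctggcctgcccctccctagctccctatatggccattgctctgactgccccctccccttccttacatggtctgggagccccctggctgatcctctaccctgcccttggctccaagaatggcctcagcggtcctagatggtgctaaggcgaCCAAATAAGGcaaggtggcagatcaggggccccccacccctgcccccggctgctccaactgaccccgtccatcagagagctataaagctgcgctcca
The windows of Lmod2 and Mybpc1 held none of the CArG box, MEF2 site and MCAT, and no window was matched for Neb or Xirp1.

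None of the 10 troponin and tropomyosin genes passed the test in either peroxide comparison. Their SEs in H2O2 against vehicle were 0.25 to 0.40, so not passing does not show that they were unchanged. In H2O2 against vehicle all 10 lay above 0, between 0.06 and 0.30 with a median of 0.19, whereas in gRc+H2O2 against gRc 3 of the 10 lay above 0 and the median was -0.20. Tnnc1, the calcium-binding subunit of slow fibres, stood at 3664, 3245 and 1688 CPM in vehicle, 3741, 4042 and 1362 in gRc, 4409, 2791 and 3348 in H2O2, and 2457, 2046 and 2969 in gRc+H2O2. Its groups overlapped, and the log2 fold change in H2O2 against vehicle was 0.30 (SE 0.40, adjusted p = 0.674). Tnni1, the inhibitory subunit of slow fibres, had 2427, 1863 and 1271 CPM in vehicle and 2126, 1631 and 2033 in H2O2 (0.06, SE 0.30, adjusted p = 0.926). Tnnt3, the tropomyosin-binding subunit of fast fibres, had 546, 1325 and 1214 CPM in vehicle and 1046, 1149 and 1098 in H2O2 (0.09, SE 0.28, adjusted p = 0.866). Tpm1, alpha-tropomyosin, had 3441, 3668 and 1815 CPM in vehicle and 3293, 2802 and 3616 in H2O2 (0.12, SE 0.37, adjusted p = 0.868). In Tnnc1, Tnni1 and Tpm1 vehicle 3 was the lowest of the vehicle libraries, and in Tnnt3 it was vehicle 1. Without vehicle 1, vehicle 3 and gRc 3 the estimates of Tnnt3 and Tpm1 were -0.28 and -0.19, against vehicle 2 alone, which lay above the vehicle mean for both genes. The share of all genes called in that fit is not given here. Among the 16 genes that fell in gRc+H2O2 against gRc without those libraries were Tnni1, Tnni2, Tnnc1, Tnnc2 and Tpm1.

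Of the 8 thick filament genes, Mybpc1 fell in the comparison within gRc and no other passed. Mybpc1 (ENSMUSG00000020061, chr10:88518279-88605152, minus strand) encodes slow myosin-binding protein C, which binds along the thick filament and tunes cross-bridges. Its values were 76.4, 100 and 78.3 CPM in vehicle, 102, 95.7 and 87.3 in gRc, 66.1, 61.8 and 56.3 in H2O2, and 54.5, 62.5 and 69.9 in gRc+H2O2. All 6 peroxide libraries lay below all 6 others. The log2 fold change was -0.47 in H2O2 against vehicle (SE 0.15, adjusted p = 0.0551) and -0.61 in gRc+H2O2 against gRc (SE 0.15, adjusted p = 0.0184). The latter call was lost without gRc 1 or 2 or gRc+H2O2 1 or 2 (adjusted p up to 0.0889). Its fast counterpart Mybpc2 did not pass, with 0.02 and -0.27 in the same comparisons.

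Mybph, myosin-binding protein H, was at 3082, 1357 and 1910 CPM in vehicle, 1782, 1471 and 1806 in gRc, 1512, 1131 and 1503 in H2O2, and 1269, 1355 and 1412 in gRc+H2O2. The groups overlapped in H2O2 against vehicle (log2 fold change -0.62, SE 0.26, adjusted p = 0.146). Myl1, the fast essential light chain, had 989, 1583 and 1546 CPM in vehicle and 1467, 1390 and 1307 in H2O2 (0.02, SE 0.19, adjusted p = 0.969). Mylpf had 2161, 4260 and 2964 CPM in vehicle and 2153, 3615 and 4975 in H2O2 (0.19, SE 0.37, adjusted p = 0.772). These light chains showed no shift beyond the spread of their own libraries. Myl2, the slow and ventricular regulatory light chain, varied most of the group in vehicle, from 4.10 CPM in vehicle 1 to 68.2 in vehicle 3. The medians of the 8 genes were -0.00085 in the first comparison and -0.24 in the second.

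Titin and the 4 M-band genes lay below 0 in both peroxide comparisons, with medians of -0.36 and -0.43, and 2 of the 5 passed in the second. Ttn (ENSMUSG00000051747, chr2:76703980-76982547, minus strand) encodes titin, the spring from Z-disc to M-band. Its values were 1264, 1656 and 1801 CPM in vehicle, 1599, 1546 and 2775 in gRc, 937, 1074 and 976 in H2O2, and 1067, 1114 and 1086 in gRc+H2O2. All 6 peroxide libraries lay below all 6 others. The log2 fold change was -0.66 in H2O2 against vehicle (SE 0.23, adjusted p = 0.0803) and -0.86 in gRc+H2O2 against gRc (SE 0.23, adjusted p = 0.0296), and the latter call was lost without gRc 3 or any gRc+H2O2 library (adjusted p up to 0.0940).

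Titin differed with peroxide in a further measure, the mean length of the transcripts to which its reads were assigned. RSEM reports for each gene and library a transcript length averaged over the gene's transcripts with their estimated abundance as weights. For Ttn it was 67671, 66252 and 68243 bases in vehicle and 66144, 67341 and 69109 in gRc. After peroxide it was 53398, 52599 and 55131 bases in H2O2 and 52696, 52130 and 53669 in gRc+H2O2. The 6 peroxide libraries lay far below the other 6, and the group means of 67389 ± 1025 and 53709 ± 1294 bases in vehicle and H2O2 (SD, n = 3) differed by many times the spread. Tested by limma over the 10490 genes whose mean length varied, 36 of the 44 among them, the log2 difference was -0.33 in H2O2 against vehicle (SE 0.02, adjusted p = 0.00295) and -0.35 in gRc+H2O2 against gRc (SE 0.02, adjusted p = 0.00153). In both comparisons Ttn had the smallest p of all 10490 genes. The share called was 0.0191% in the first, where Svop, a synaptic vesicle protein gene named after its value was seen, was the other gene past the threshold, and 0.00953% in the second, where Ttn was alone. Both calls held in 12 of the 12 fits with 1 library left out, with log2 differences of -0.35 to -0.31 and adjusted p up to 0.0319 in the first, and of -0.37 to -0.34 and adjusted p up to 0.0196 in the second. Without vehicle 1, vehicle 3 and gRc 3 together the second gave -0.34 (adjusted p = 0.0483, 2 gRc libraries). The first gave -0.30 (adjusted p = 0.0451), but there vehicle 2 was the only vehicle library and was assumed to vary like the other groups.

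The tables list 25 transcripts for Ttn, which in GENCODE M21 run from 271 to 106824 bases, and the mean does not say which of them changed in abundance. Because reads are divided by length to give TPM, the shorter mean raised titin's TPM in the peroxide libraries. On that scale Ttn was at 25.7, 39.1 and 37.1 in vehicle and 23.9, 29.8 and 24.3 in H2O2, where the groups overlapped. With the effective length as an offset the log2 fold changes were -0.37 in H2O2 against vehicle (adjusted p = 0.383) and -0.50 in gRc+H2O2 against gRc (adjusted p = 0.247), so the fall of titin's reads was larger than that of its level per length. With limma on TPM they were -0.36 and -0.48 (adjusted p = 0.390 and 0.252). For Neb, whose 13 listed transcripts run from 582 to 22489 bases, the mean length was greatest in vehicle 3 and gRc 3, at 6750 and 7524 bases, and between 3607 and 5452 in the other 10 libraries. gRc made no difference to titin's mean length that passed the test, with 0.0029 in gRc against vehicle and -0.02 in gRc+H2O2 against H2O2 (limma adjusted p = 1 in both).

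**Figure D3:**
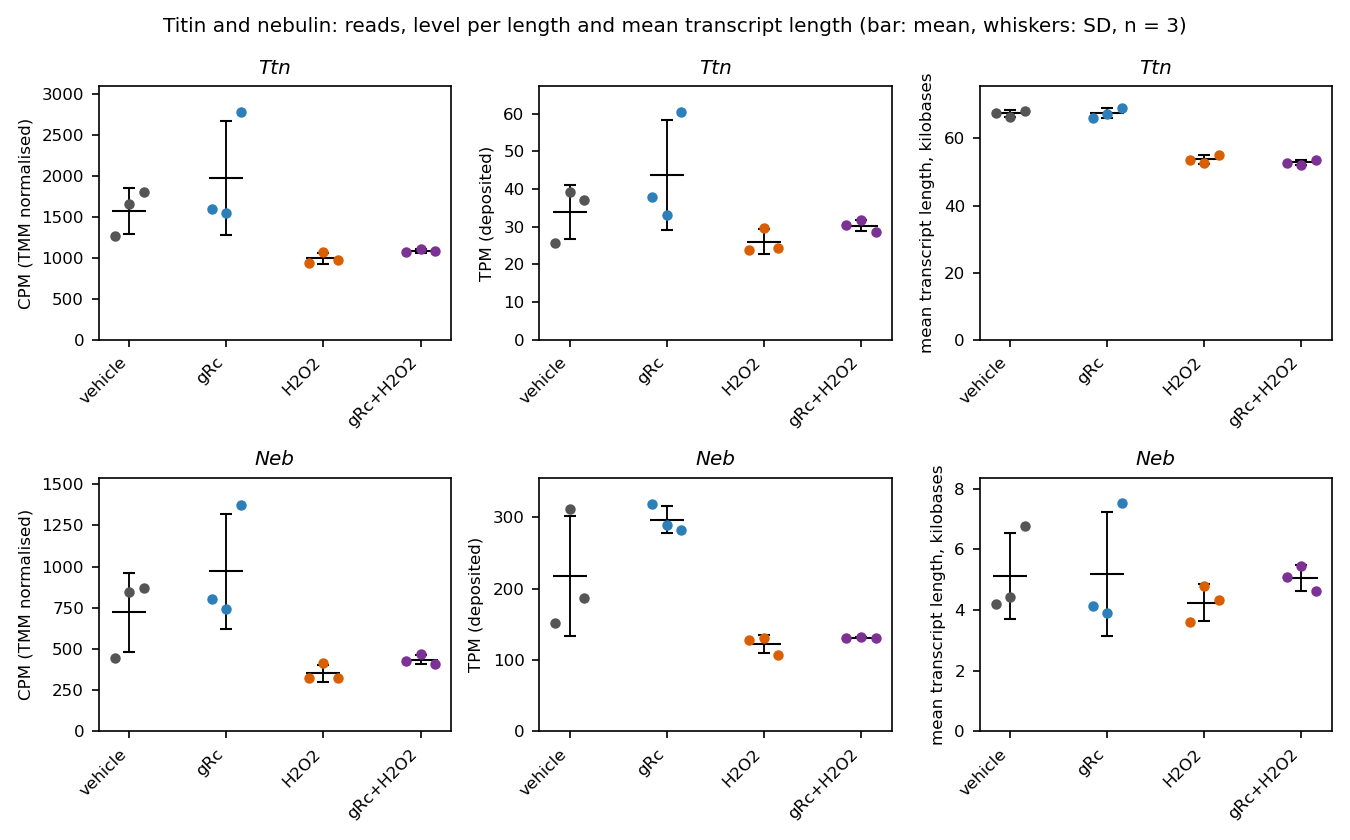
CPM, TPM and mean transcript length in kilobases of Ttn (top) and Neb (bottom) in each library, with the mean and SD of each group (n = 3). The 6 peroxide libraries of Ttn lie between 52130 and 55131 bases and the other 6 between 66144 and 69109, whereas the lengths of Neb overlap.

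Myom1 (ENSMUSG00000024049, chr17:71002633-71126856, plus strand) encodes myomesin-1, which cross-links thick filaments at the M-band. It was at 280, 271 and 176 CPM in vehicle, 289, 299 and 205 in gRc, 184, 162 and 196 in H2O2, and 148, 145 and 192 in gRc+H2O2. Vehicle 3 and gRc 3 were the lowest libraries of their groups and vehicle 3 lay within the range of H2O2. The log2 fold change was -0.42 in H2O2 against vehicle (SE 0.21, adjusted p = 0.215) and -0.71 in gRc+H2O2 against gRc (SE 0.21, adjusted p = 0.0458), and the latter call held in 3 of the 12 fits with 1 library left out (adjusted p up to 0.172 without vehicle 2, gRc 1 or 2, or any library that received peroxide). That call was also lost with other size factors, no filter, only the groups compared, a replicate block, limma on TPM and effective-length offsets. GC correction with the replicate block lost it too. Myom2 and Myom3, paralogues of Myom1, did not pass, with -0.08 and -0.36 in the first comparison and -0.27 and -0.43 in the second. Ckm, the muscle creatine kinase that regenerates ATP at the M-band, had 550, 398 and 373 CPM in vehicle and 378, 316 and 381 in H2O2 (-0.30, SE 0.19, adjusted p = 0.326).

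The promoter windows of Ttn (chr2:76982498-76982797, minus strand) and Myom1 (chr17:71019307-71019606, plus strand, a RefSeq start inside the gene span given above) are shown for comparison with that of Actc1. Capitals mark in Ttn a MEF2 site 166 bases before the start and an MCAT from base 12 of the transcript, and in Myom1 a CArG box 99 bases before the start. Ttn was added after its values were seen.
Ttn: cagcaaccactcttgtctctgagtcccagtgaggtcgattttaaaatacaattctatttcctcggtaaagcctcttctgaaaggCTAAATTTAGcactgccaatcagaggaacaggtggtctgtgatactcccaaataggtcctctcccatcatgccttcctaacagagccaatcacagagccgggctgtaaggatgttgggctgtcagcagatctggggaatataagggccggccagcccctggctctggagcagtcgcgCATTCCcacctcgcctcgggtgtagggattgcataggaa
Myom1: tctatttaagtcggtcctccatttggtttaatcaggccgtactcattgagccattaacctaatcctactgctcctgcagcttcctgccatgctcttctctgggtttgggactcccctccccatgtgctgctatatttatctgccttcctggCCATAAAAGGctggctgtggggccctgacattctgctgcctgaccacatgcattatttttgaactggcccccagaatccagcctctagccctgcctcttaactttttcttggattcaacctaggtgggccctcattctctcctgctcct

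Of the 14 Z-disc genes, Ankrd1 rose in both peroxide comparisons and no other passed in either. Ankrd1 (ENSMUSG00000024803, chr19:36111961-36120099, minus strand) encodes the ankyrin repeat protein CARP, which binds titin and acts in the nucleus as a transcriptional cofactor, and which is known to rise in stretched or injured muscle. Its values were 881, 888 and 808 CPM in vehicle, 992, 933 and 736 in gRc, 1535, 1312 and 1449 in H2O2, and 1363, 1353 and 1488 in gRc+H2O2. All 6 peroxide libraries lay above all 6 others, and vehicle 3 and gRc 3 were the lowest of their groups. It rose by 0.74 in H2O2 against vehicle (SE 0.15, adjusted p = 0.0092), a level 1.67-fold higher, and by 0.66 in gRc+H2O2 against gRc (SE 0.15, adjusted p = 0.0155). The first call held in 12 of the 12 fits with 1 library left out (0.67 to 0.79, adjusted p up to 0.0473), and the second was lost without any gRc+H2O2 library (adjusted p up to 0.0729). When only the 6 libraries compared were fitted, or with limma on TPM, the first call was lost as well, with adjusted p up to 0.0720. The second was also lost with no filter and with limma on TPM.

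The Ankrd1 window (chr19:36119795-36120094, minus strand) is shown because the gene gave the smallest p of the 44 in H2O2 against vehicle and in the averaged contrast given below, a choice made after its values were seen. Capitals mark the reverse complement of MCAT, 210 and 123 bases before the start. Ldb3 is shown by its first of 2 RefSeq windows (chr14:34588558-34588857, minus strand), with a CArG box 109 bases before the start.
Ankrd1: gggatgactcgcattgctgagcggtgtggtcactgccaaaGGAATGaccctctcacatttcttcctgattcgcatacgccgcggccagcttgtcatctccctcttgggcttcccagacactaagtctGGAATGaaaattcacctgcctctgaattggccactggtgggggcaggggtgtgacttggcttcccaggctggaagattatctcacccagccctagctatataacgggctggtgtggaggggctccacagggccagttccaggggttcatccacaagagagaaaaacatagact
Ldb3: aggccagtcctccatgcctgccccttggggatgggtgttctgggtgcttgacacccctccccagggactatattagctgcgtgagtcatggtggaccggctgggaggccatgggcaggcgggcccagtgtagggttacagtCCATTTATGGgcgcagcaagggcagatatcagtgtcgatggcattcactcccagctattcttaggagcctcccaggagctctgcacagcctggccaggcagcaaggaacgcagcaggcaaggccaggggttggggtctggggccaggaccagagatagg

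Xirp1, the actin-binding Xin protein, which is known to mark muscle damage, stood at 391, 289 and 288 CPM in vehicle, 302, 324 and 339 in gRc, 511, 417 and 559 in H2O2, and 339, 390 and 505 in gRc+H2O2. The groups did not overlap in the first comparison (log2 fold change 0.62, SE 0.19, adjusted p = 0.0521) but did in the second, where gRc+H2O2 1 lay within the range of gRc (0.35, SE 0.19, adjusted p = 0.263). Ldb3 (ENSMUSG00000021798, chr14:34526603-34588682, minus strand) encodes the PDZ-LIM protein that holds alpha-actinin at the Z-disc. It was at 131, 157 and 215 CPM in vehicle, 145, 145 and 229 in gRc, 102, 105 and 104 in H2O2, and 105, 120 and 112 in gRc+H2O2. All 6 peroxide libraries lay below all 6 others, and the log2 fold changes were -0.70 (SE 0.21, adjusted p = 0.0501) and -0.62 (SE 0.21, adjusted p = 0.0767). Pdlim3, a related PDZ-LIM protein, had 160, 172 and 249 CPM in vehicle, 170, 179 and 263 in gRc, 131, 141 and 142 in H2O2, and 144, 163 and 152 in gRc+H2O2. It too was lower without overlap in both comparisons (-0.49, SE 0.20, adjusted p = 0.134, and -0.42, SE 0.20, adjusted p = 0.207).

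Des, desmin, the intermediate filament that links neighbouring Z-discs, was the member with most reads in 10 libraries. It had 11465, 6930 and 3625 CPM in vehicle, 6891, 9565 and 3679 in gRc, 8211, 6018 and 9366 in H2O2, and 5003, 4558 and 7028 in gRc+H2O2, so vehicle alone spanned the range of both peroxide groups (log2 fold change in H2O2 against vehicle 0.10, SE 0.43, adjusted p = 0.907). Csrp3, muscle LIM protein, had 268, 113 and 77.0 CPM in vehicle and 204, 95.7 and 152 in H2O2 (-0.02, SE 0.46, adjusted p = 0.986). Tcap, telethonin, which joins the ends of titin, had 375, 150 and 71.1 CPM in vehicle and 211, 125 and 181 in H2O2 (-0.20, SE 0.55, adjusted p = 0.849). Des, Csrp3 and Tcap shared an order in vehicle, with vehicle 1 highest and vehicle 3 lowest. Myoz2, which binds calcineurin, had 61.0, 110 and 154 CPM in vehicle and 107, 106 and 86.7 in H2O2 (-0.12, SE 0.28, adjusted p = 0.818). Myot, myotilin, had 6.10, 25.4 and 26.8 CPM in vehicle and 11.4, 18.5 and 14.0 in H2O2 (-0.41, SE 0.42, adjusted p = 0.563). In Myoz2 and Myot vehicle 1 was the lowest of the vehicle libraries. Klhl41, a kelch protein that stabilises nebulin, varied little, with 511, 628 and 492 CPM in vehicle and 490, 543 and 522 in H2O2 (-0.07, SE 0.15, adjusted p = 0.805). The remaining Z-disc genes Actn2, Actn3, Myoz1 and Smpx had log2 fold changes of -0.23 to 0.19.

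Averaging both peroxide comparisons, a contrast added after the data were seen that uses all 12 libraries and so shares them with the comparisons above, gave 3 genes that rose and 7 that fell, against 14.6% and 16.4% of all genes (6.82% and 15.9% of the 44). Ankrd1 rose by 0.70 (SE 0.11, adjusted p = 0.00073), Lmod2 by 0.68 (SE 0.12, adjusted p = 0.00168) and Xirp1 by 0.49 (SE 0.14, adjusted p = 0.0193). Neb fell by 1.10 (SE 0.21, adjusted p = 0.00216), Ttn by 0.76 (SE 0.16, adjusted p = 0.00504), Ldb3 by 0.66 (SE 0.15, adjusted p = 0.00709), and Myom1 by 0.57 (SE 0.15, adjusted p = 0.0154). Mybpc1 fell by 0.54 (SE 0.10, adjusted p = 0.00268), Pdlim3 by 0.45 (SE 0.14, adjusted p = 0.0335) and Actc1 by 0.39 (SE 0.10, adjusted p = 0.00939). The 10 genes thus come from every role group except the troponins and tropomyosins, none of which passed. For those, not passing does not show that they were unchanged. The median of the 44 was -0.13, against -0.05 over all genes. With 1 library left out, 8 of the 10 calls held in 12 of 12 fits. Xirp1 was lost without gRc 1, H2O2 3 or gRc+H2O2 3 (adjusted p up to 0.0607), and Pdlim3 without gRc 3 or any library that received peroxide (adjusted p up to 0.0709). Ttn was lost with effective-length offsets (log2 fold change -0.44, adjusted p = 0.0932) and with limma on TPM (-0.42, adjusted p = 0.0935).

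**Figure D4:**
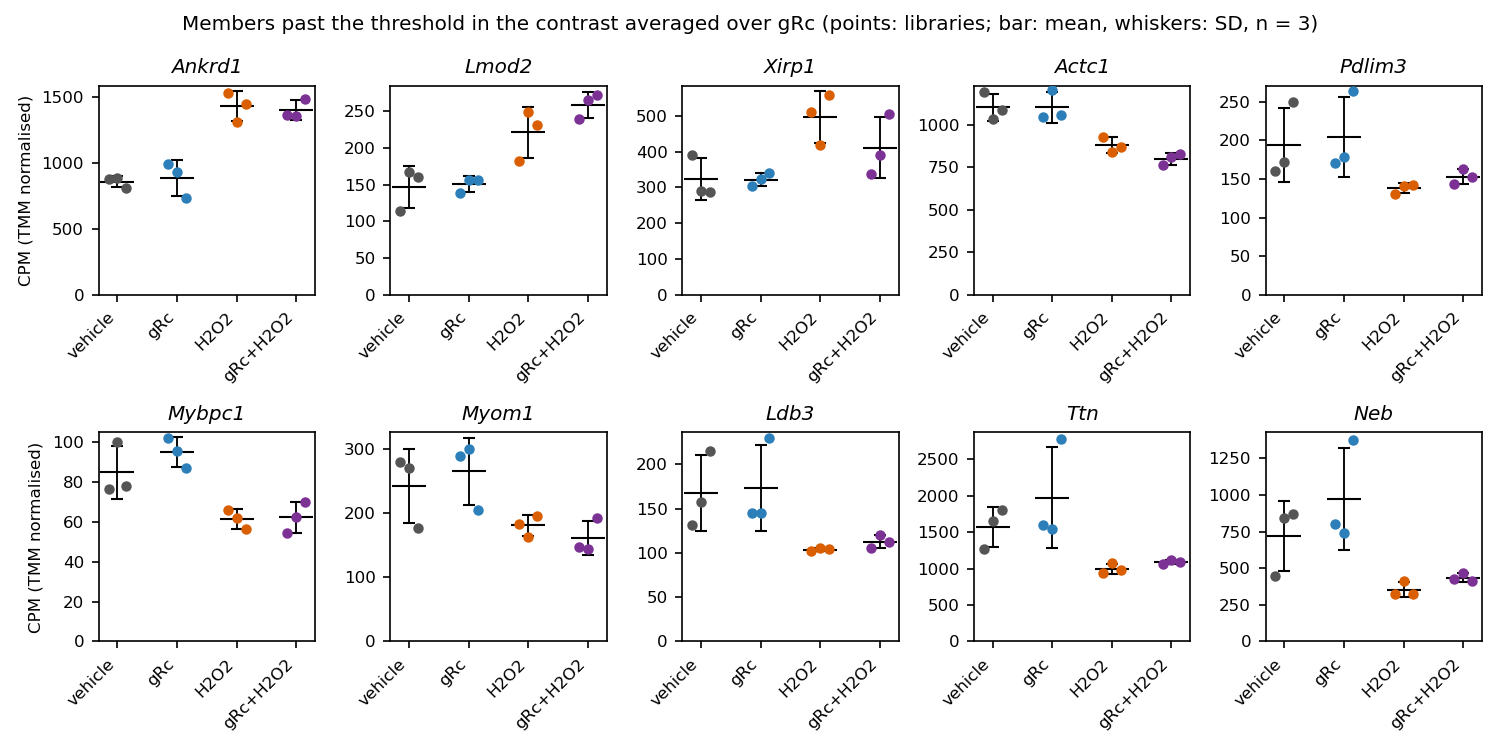
CPM of the 10 genes past the threshold in the averaged contrast, with 1 point for each library and the mean and SD of each group (n = 3). Ankrd1 and Lmod2 are higher in all 6 peroxide libraries than in any other, Actc1, Ttn, Mybpc1 and Ldb3 are lower, and Neb overlaps at vehicle 1.

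The comparison gRc+H2O2 against H2O2 asked whether gRc changed these transcripts under peroxide. None of the 44 passed, nor did any gene (0% of 14838), and 0 of the 44 passed at an unadjusted p under 0.05 in edgeR, against 122 of all genes. DESeq2 and limma called 0 of the 44 as well. Each SE rests on a spread estimated over all 12 libraries. The median SD of log2 CPM of the 44 was larger in vehicle (0.536) and gRc (0.365) than in H2O2 (0.196) and gRc+H2O2 (0.193). Not passing therefore does not show that these genes were unchanged by gRc. The smallest adjusted p among the 44 was 0.922, the median was -0.06, and 17 lay above 0. Smallest by p were Csrp3 (log2 fold change -0.74, SE 0.46), Xirp1 (-0.27, SE 0.19) and Lmod2 (0.23, SE 0.17). The 2 groups did not overlap for 6 of the 44 (13.6%), against 15.3% of all genes. Acta1, Ldb3, Lmod3, Myl2 and Pdlim3 were higher in all gRc+H2O2 libraries, and Actc1 was lower. For Ldb3 the gRc+H2O2 libraries lay at 105, 120 and 112 CPM against 102, 105 and 104, a step far smaller than that between either and vehicle.

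In gRc against vehicle, which asked what gRc did without peroxide, none of the 44 and none of the 14838 genes passed (0%). In edgeR 0 of the 44 and 74 of all genes had an unadjusted p under 0.05, and DESeq2 and limma called 0 of the 44. The smallest p were those of Tmod1 (log2 fold change -0.41, SE 0.23), Neb (0.43, SE 0.29) and Ttn (0.33, SE 0.23), with an adjusted p of 0.9998 each. There were 33 genes above 0 (75%) and 11 below, with a median of 0.07, against 50.4% above 0 and a median of 0.0018 over all genes. The groups were free of overlap for none of the 44 and for 239 of the 14838 genes. Not passing does not show that the 44 were unchanged. Vehicle and gRc are shared with the peroxide comparisons, so their values are not independent of those. The interaction, which tests whether the peroxide response differed with gRc, called 0 of the 44 and 0% of 14838 genes in edgeR, with 0 of the 44 and 87 of all genes at an unadjusted p under 0.05, and DESeq2 called 0 of the 44. Its smallest p were those of Tmod1 (0.47, SE 0.32), Tnnc2 (-0.45, SE 0.43) and Tnnc1 (-0.59, SE 0.57), with an adjusted p of 1 each. Troponins and tropomyosins all lay below 0 there, with a median of -0.39, and none passed.

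Ratios of paralogues within a library, for which shared depth cancels, were compared for 12 pairs such as fast against slow troponins, in H2O2 against vehicle and in gRc+H2O2 against H2O2. None of the 24 differences passed (two-sided exact permutation test, smallest adjusted p = 0.8), and with 3 against 3 libraries the smallest p that can be reached is 0.1. In H2O2 against vehicle no pair was free of overlap. In gRc+H2O2 against H2O2 the log2 ratio of Acta1 to Actc1 was higher in all 3 libraries, at 1.98, 2.08 and 1.88 against 1.3, 1.62 and 1.46. So was that of Tnnt3 to Tnnt2, at -1.06, -0.93 and -1.11 against -1.80, -1.14 and -1.62, and that of Tnnt3 to Tnnt1, at 0.31, 0.49 and 0.03 against -0.59, 0.03 and -0.54. In the last ratio the nearest libraries were all but equal.

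How much the 44 genes varied within a group differed between groups. The median SD of log2 CPM was 0.536 in vehicle and 0.365 in gRc, against 0.196 in H2O2 and 0.193 in gRc+H2O2, and the same medians over all genes were 0.417, 0.314, 0.200 and 0.157. Genes of the 44 more than 0.5 from their group mean numbered 17 in vehicle 1 (38.6%, against 38.1% of all genes), 18 in vehicle 3 (40.9%, against 32.8%), 19 in gRc 3 (43.2%, against 28%) and 13 in gRc 2 (29.5%, against 15.9%), and at most 5 in each other library. Tnnt1, Tnnt2, Tnni1, Tnni2, Tnnc1, Tnnc2, Des, Tcap and Csrp3 were low in vehicle 3 and gRc 3, while Acta1 was high there, at 5013 and 5071 CPM against 1775 to 3224 in the other 10 libraries. Mybph and Tmod1 were highest in vehicle 1, at 3082 and 189 CPM.

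**Figure D5:**
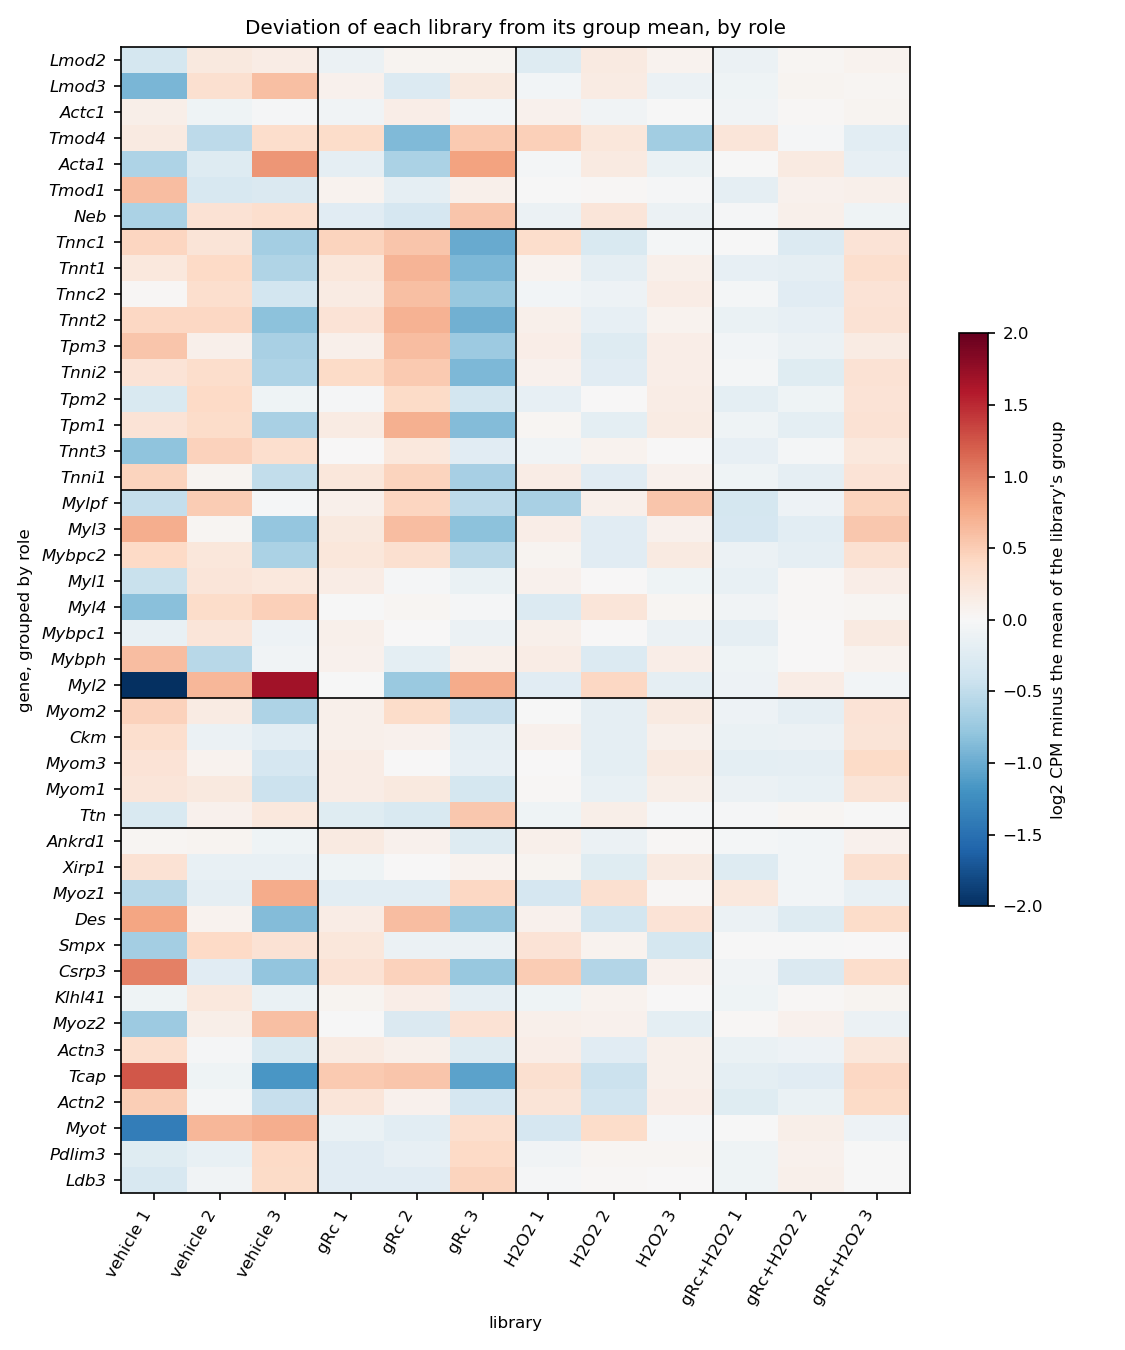
Log2 CPM of each of the 44 genes (rows, by role) in each of the 12 libraries (columns) minus the mean of the library's group, from blue (lower) to red (higher). Vehicle 1, vehicle 3 and gRc 3 carry the strongest colours, with 17, 18 and 19 genes more than 0.5 from the group mean, and the peroxide libraries are pale.

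Other sarcomeric and assembly genes outside the 44 (45 listed, 43 tested, with Myh3, Myh8 and Tnni3 also among the markers above) were read for context. In H2O2 against vehicle 3 of the 43 rose and 2 fell, against 7.81% and 7.84% of all genes, so neither share was above the background. Their median was -0.17, against -0.06 over all genes. The small heat shock protein Hspb8, part of a chaperone complex that clears damaged Z-disc proteins, rose by 1.07 (SE 0.25, adjusted p = 0.0158). Trim63, the ubiquitin ligase MuRF1 that acts on thick filament proteins, rose by 0.60 (SE 0.16, adjusted p = 0.0317), and its relative Trim54 by 0.51 (SE 0.15, adjusted p = 0.0378). Cmya5, a Z-disc-associated protein, fell by 0.80 (SE 0.22, adjusted p = 0.0306), and Myh4, a fast myosin heavy chain, by 0.61 (SE 0.18, adjusted p = 0.0464). In gRc+H2O2 against gRc 1 of the 43 rose and 5 fell, against 7.57% and 8.15% of all genes. Trim63 rose there (0.62), and Cmya5 (-1.0) and the heavy chains Myh4 (-0.91), Myh1 (-1.08), Myh2 (-1.14) and Myh8 (-0.62) fell. Reads shared among the clustered heavy chains are divided by estimate, so the split among them is uncertain. Of 24 tested factors and targets of SRF, MRTF and YAP/TEAD, which bind CArG and MCAT elements, edgeR called 0 in H2O2 against vehicle. Their median was -0.22, and 6 had an unadjusted p under 0.05 in edgeR, against 4422 of the 14838 genes tested. In gRc+H2O2 against gRc 1 of the 24 fell, against 8.15% of all genes. It was Myl9, a non-sarcomeric light chain (-0.86, adjusted p = 0.0089). Srf itself stood at a log2 fold change of 0.07 in H2O2 against vehicle.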

How the data were processed

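The authors aligned the reads with STAR 2.7.3a to GRCm38 and deposited, for each gene and library, RSEM 1.3.3 expected counts, TPM, and a mean and an effective transcript length in bases. FastQC and Trim Galore are named in the deposited records. The kit kept strand, but whether counting used it is not given in the sources used here. Here expected counts were rounded and fitted in R 4.3.3 with edgeR 4.0.16 (filterByExpr, TMM, quasi-likelihood F test, all 12 libraries, biological coefficient of variation 0.295). SE was derived as the absolute log2 fold change over the root of the F statistic. An adjusted p under 0.05 over 14838 genes counts as passing. Mean transcript length was tested on the log2 scale with limma 3.58.1, and paralogue ratios on log2(TPM + 0.5). DESeq2 1.42.0, other filters and size factors, a replicate block, GC correction and leaving out libraries were alternatives. The edgeR test was tried on simulated data for H2O2 against vehicle and gRc+H2O2 against H2O2, and the length test for the averaged contrast. The other statistics were not tried on simulated data. The 44 genes, the lists, the tests and the rule for full statistics (called genes, otherwise the 3 smallest p, and 22 role representatives) were chosen with earlier results of these data known. Replicate numbers paired gRc with vehicle, whose same-numbered libraries deviated together (correlations 0.46, 0.271 and 0.86), and the block called 0 of the 44 there too. Sequences are RefSeq's, GRCm38.p6.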

Additional observations from a re-analysis of the deposited data

How the results depend on the processing

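In gRc+H2O2 against H2O2, gRc against vehicle and the interaction, 0 of the 44 genes passed under every alternative run, and in the averaged contrast 8 to 12 did. In H2O2 against vehicle the 3 calls became 9 with DESeq2, 5 with at least 10 counts in every library, 0 with only the groups compared fitted, 1 with limma on TPM, 6 with GC correction, 5 with GC correction and replicate block, 6 without the 3 libraries that stand apart (vehicle 2 then the only vehicle library, assumed to vary like the other groups), and 1 to 7 with 1 library left out. In gRc+H2O2 against gRc the 7 became 4 with no filter, 4 with only the groups compared, 3 with limma, 18 without the 3 libraries and 1 to 8 with 1 left out. Over all genes, H2O2 against vehicle gave 2323 calls with edgeR, 2984 with DESeq2, 1492 with limma and 739 with only the groups compared. Counts over all genes under the alternatives are not given here for gRc+H2O2 against gRc. The titin length calls held with effective length, the replicate block, the 3 libraries left out and each library left out, the alternatives run for them. Beyond the smaller sample of the fits with fewer libraries, the cause was not tested. The replicate block gave 4 calls in H2O2 against vehicle (Ldb3 added) and 5 in gRc+H2O2 against gRc (Actc1 and Myom1 lost). Except for gRc with vehicle, numbers did not pair the libraries, with correlations down to -0.283 in H2O2 against vehicle and -0.55 in gRc+H2O2 against gRc.

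Signs turned in H2O2 against vehicle for genes that passed no test there. Myl1 was -9.31e-05 with no filter, -0.000741 with only the groups compared, -0.0417 with limma, -0.0349 with effective length, -0.0108 with GC correction and -0.00314 with the block added. Tcap was 0.0348 with limma and 0.0357 with GC correction and block, and Csrp3 was 0.0735 with the replicate block, 0.0645 with limma and 0.0248 with GC correction and block. Without the 3 libraries, against vehicle 2 alone, Myl1 was -0.20, Mylpf -0.26, Tnnt3 -0.28, Tpm1 -0.19, Mybph 0.0149, Tcap 0.19 and Csrp3 0.40, and in gRc against vehicle Neb was -0.14 and Ttn -0.0808. With 1 library left out Acta1 ran from -0.80 to 0.0200, Myl1 from -0.17 to 0.13, Mylpf from -0.13 to 0.48, Tnnt3 from -0.21 to 0.32, Tnni1 from -0.17 to 0.30, Tpm1 from -0.15 to 0.30, Myoz2 from -0.40 to 0.20, Tcap from -0.62 to 0.64, Csrp3 from -0.355 to 0.67, Klhl41 from -0.15 to 0.0470, Des from -0.24 to 0.58, and Ttn in gRc against vehicle from -0.0045 to 0.46. These turns came mostly from leaving out vehicle 1 or vehicle 3. Counts were as low as 6 for Tmod4. In H2O2 against vehicle SEs were above 0.4 for Acta1, Des, Csrp3, Tcap, Myl2, Myl3, Myot, Tmod4, Tnnt2 and Tnnc1. With 3 libraries a group, changes of the size seen for Ankrd1 were not detectable in those genes. The troponin and tropomyosin genes had SEs of 0.25 to 0.40, so such changes could go unseen there too.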
